A study of Mus musculus with 6 samples.

Results

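The genes described here encode the 2 protein complexes that start an autophagosome. They were the 10 genes Ulk1, Ulk2, Rb1cc1, Atg13 and Atg101, of the ULK kinase complex, and Becn1, Pik3c3, Pik3r4, Atg14 and Uvrag, of the class III phosphatidylinositol 3-kinase (PI3K) complexes. They were taken by name from 19620 genes measured on Affymetrix mouse exon arrays, whose probes are spread over the exons of a gene. The arrays give 1 value for each transcript cluster, a set of probes that target the same transcribed region. For each gene the cluster was used that the array annotation pairs with its symbol alone, and the brightest of them where there were several. All 10 genes had such a cluster. Atg14 carries the older symbol D14Ertd436e in the annotation and was found as a synonym in RefSeq.

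Total RNA came from mice at postnatal day 16, 3 arrays from Nestin-Cre;Atg7f/f mice (cKO) and 3 from Nestin-Cre;Atg7+/+ mice (control), on a C57BL/6 background. Both groups carry the Cre driver, and Atg7 is floxed only in the cKO. The paper names Nestin-Cre, which is active in neural precursors, and the cerebral cortex, whereas NexCre, which uses the Neurod6 locus, and the brain stand in the sample labels. Cells outside the lineage of either driver keep Atg7, so the tissue is a mixture. In such bulk RNA, fewer cells of a type and less RNA per cell cannot be told apart. Nothing in the sources used here says that the arrays are of separate animals. The p-values therefore cover only the spread between these arrays. By its Xist signal, cKO replicate 1 came from a different animal or pool than the other cKO arrays. Whether the remaining arrays are of separate animals was not tested. Among the control arrays Ttr, a marker of the choroid plexus, had log2 signals between 5.38 and 9.62.

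When nutrients are short, the ULK kinases are released from inhibition by mTORC1, can be activated by AMPK, and phosphorylate the class III PI3K complex. The lipid kinase then makes phosphatidylinositol 3-phosphate (PI3P) on a membrane next to the endoplasmic reticulum, where PI3P-binding proteins collect. ATG7, the enzyme deleted here, acts after this, when ATG12 and LC3 are conjugated to their partners. The comparison asks whether the genes of the steps before the block differed in RNA level between the cKO and control cortex.

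In the cKO arrays, Atg7 had log2 signals of 6.12, 6.03 and 5.90, against 6.58, 6.54 and 6.39 in the controls, without overlap. The difference was -0.48 (SE 0.092, unadjusted p = 0.00124 and adjusted p = 0.999 from limma), on a cluster that the annotation pairs also with Camsap1. Probes of these arrays are spread over the exons of a gene, and which exons this cluster covers was not examined. A pair of arrays stood apart. The first principal component, with 35.9% of the variance, scored cKO replicate 1 at -26.2 and control replicate 1 at -13.8, and the remaining 4 arrays between 2.55 and 15.8. Xist, the RNA of the inactive X chromosome, reached 9.51 in cKO replicate 1, against at most 4.15 in the remaining 5 arrays, and Uty, Kdm5d and Eif2s3y of the Y chromosome were lowest there, so this array carries the pattern of a female and the rest that of males. The arrays correlated with each other between 0.980 and 0.990 over the genes tested. All 7 neuronal markers were above the dimmest 25% of genes, as were all 6 of the astrocyte and all 5 measured of the oligodendrocyte markers.

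None of the 10 initiation genes differed between cKO and control at an adjusted p under 0.05 from limma, where 0% of all genes tested passed in either direction. None passed an unadjusted p of 0.05 either, which 3.98% of all genes did, and no gene had cKO arrays that all lay on one side of the controls, as 8.41% of all genes had. The mean was higher in the cKO for 3 of the 10 genes and lower for 7, and over all genes tested it was lower for 52.5%. The median difference of the 10 genes was -0.029 on the log2 scale, and the median over all genes tested was -0.0059. The 10 unadjusted p-values lay between 0.179 and 0.948, and each adjusted p was 0.9995 when rounded.

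**Figure D1:**
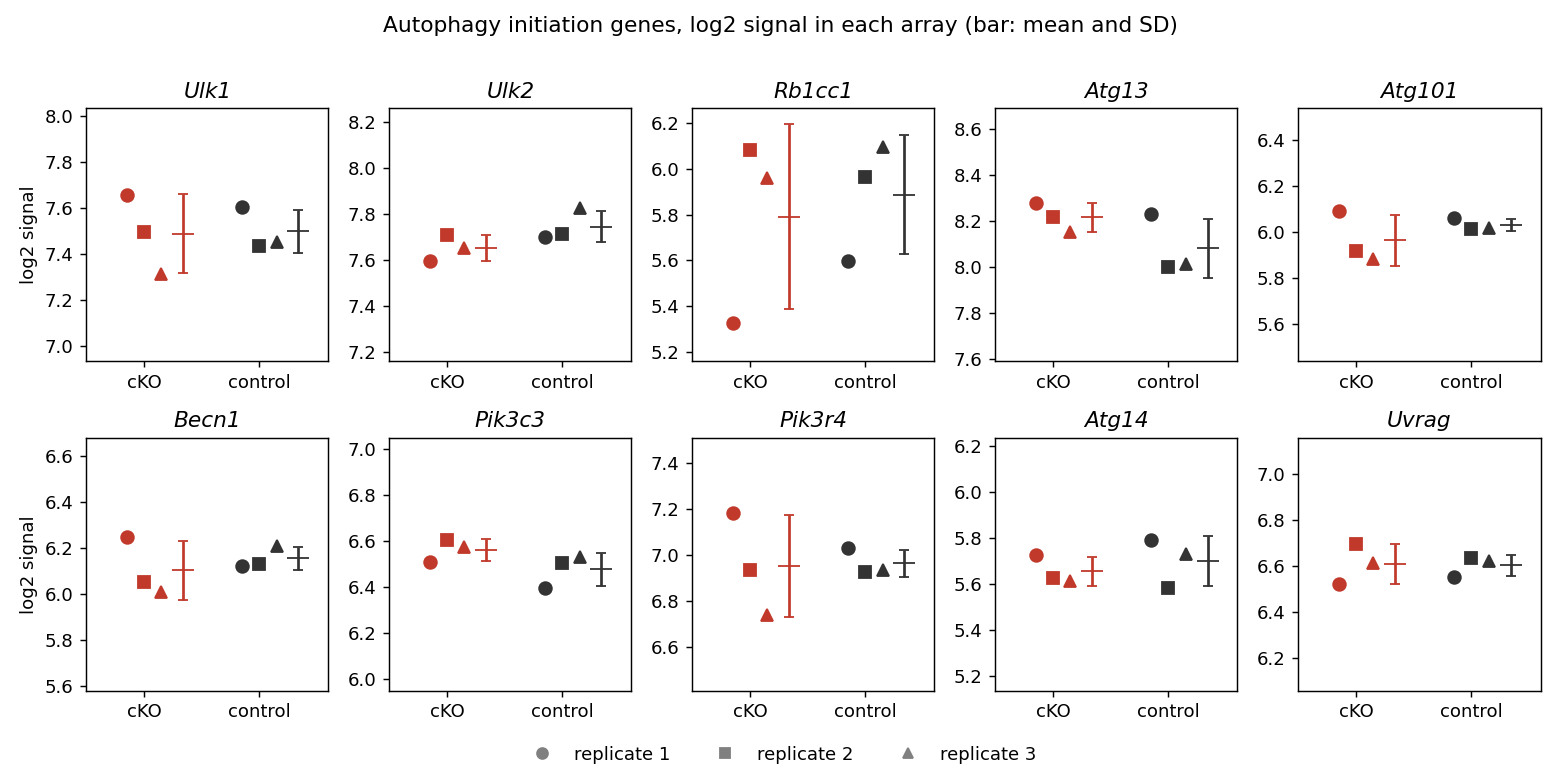
The log2 signal of each initiation gene (vertical axis, with the same span in every panel) in the 3 cKO arrays (red, left) and the 3 control arrays (black, right), with the replicate number as marker shape and the mean and SD (n = 3) beside the points. The cKO and control points overlap in all 10 panels, and Rb1cc1 has the widest spread, with replicate 1 lowest in both groups.

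Of the ULK complex, the kinases come first. Ulk1 (transcript cluster 6941049) and Ulk2 (6788862) encode related serine/threonine kinases, the mammalian counterparts of yeast Atg1, which share much of their function in autophagy. Ulk1 had log2 signals of 7.66, 7.50 and 7.31 in cKO replicates 1 to 3, against 7.61, 7.44 and 7.45 in control replicates 1 to 3. The cKO arrays held both the highest and the lowest of these 6 values. The means were 7.49 ± 0.17 in the cKO and 7.50 ± 0.094 in the control (SD, n = 3 each), and the difference was -0.011 (SE 0.11, 95% interval -0.27 to 0.24, adjusted p = 0.9995 from limma). After the arrays were quantile normalized again it was 0.0081, with the opposite sign.

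Ulk2 had log2 signals of 7.60, 7.71 and 7.66 in the cKO arrays, against 7.70, 7.71 and 7.83 in the control arrays. Replicates 1 and 3 of the cKO lay below every control, and cKO replicate 2 lay between controls 1 and 2. The difference was -0.094 (SE 0.076, 95% interval -0.27 to 0.087), a fold change of 0.937. Within an array, the log2 ratio of Ulk1 over Ulk2, set against its mean in the controls, was 0.31, 0.037 and -0.095 in the cKO and 0.16, -0.030 and -0.13 in the control arrays. This ratio of RNA signals overlapped between the groups, and it was highest in replicate 1 of each.

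Rb1cc1 (6747343) encodes FIP200, the large scaffold on which the complex assembles. Its log2 signals were 5.33, 6.08 and 5.96 in the cKO arrays, against 5.60, 5.97 and 6.09 in the control arrays. Replicate 1 was the lowest array of each group, and the other 4 arrays lay within 0.13 of each other. The difference was -0.094 with an SE of 0.22, the largest SE of the 10 genes, and the 95% interval ran from -0.62 to 0.43, or from 0.652-fold to 1.35-fold. Without cKO replicate 1 the difference was 0.14, and without both arrays numbered 1 it was -0.0086. Rb1cc1 has 2 further clusters, both dim, with means below 4.49, under which the dimmest 25% of genes lay. The cluster 6879979 differed by 0.16 (SE 0.11). The cluster 6879978 differed by 0.90 (SE 0.57, adjusted p = 0.9995 from limma), with 3.12, 3.27 and 3.25 in the cKO against 3.79, 1.37 and 1.80 in the control arrays, so the control arrays alone spanned more than the difference.

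Atg13 (6888779) encodes the adaptor that links the kinase to FIP200, and its cluster had the lowest unadjusted p of the 10 clusters tested. Its log2 signals were 8.28, 8.22 and 8.15 in the cKO arrays, against 8.23, 7.999 and 8.01 in the control arrays. Only control replicate 1 reached into the range of the cKO. The difference was 0.14 (SE 0.091, 95% interval -0.079 to 0.35, unadjusted p = 0.179 and adjusted p = 0.9995 from limma), a fold change of 1.10. After another quantile normalization every cKO array lay above every control for Atg13 alone of the 10 genes, where 9.69% of all genes tested had no overlap. Without control replicate 1 the difference was 0.21 (unadjusted p = 0.0538 and adjusted p = 0.9998 from limma).

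The other 2 clusters of Atg13 did not give 1 direction. The cluster 6888780 differed by 0.10 (SE 0.16), with the cKO arrays at 7.35, 7.16 and 7.15 inside the range of the control arrays at 7.43, 6.80 and 7.12. The cluster 6879075 differed by -0.14 (SE 0.083, unadjusted p = 0.132 and adjusted p = 0.9995 from limma). It had 5.62, 5.46 and 5.51 in the cKO against 5.76, 5.59 and 5.67 in the control arrays. Its unadjusted p was lower than that of the cluster tested, and its difference had the opposite sign. With the 3 clusters averaged, Atg13 differed by 0.031. Among 9809 other genes above the median signal, the 3 whose profile over the 6 arrays was nearest to that of Atg13 were Bola3, Vgll4 and Lsg1. Their root mean square difference from it was 0.0173, 0.0186 and 0.0225 on the log2 scale, with each gene centred on its own mean. They differed between cKO and control by 0.15, 0.12 and 0.11, and differences near that of Atg13 follow from choosing them by these same arrays.

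The annotated start of Atg13 lies head to head with that of Harbi1, a gene derived from a transposase. In RefSeq, build GRCm38.p6, their starts are 260 bases apart, and no other gene's promoter window overlapped that of any of the 7 initiation genes with a window examined here. The window of Atg13 is printed because it is the only shared one, with its 241 bases in common with the Harbi1 window in capitals. It runs 5′ to 3′ on the minus strand of chr2:91710563-91710842, from 250 bases before the start to 30 after it.
Atg13: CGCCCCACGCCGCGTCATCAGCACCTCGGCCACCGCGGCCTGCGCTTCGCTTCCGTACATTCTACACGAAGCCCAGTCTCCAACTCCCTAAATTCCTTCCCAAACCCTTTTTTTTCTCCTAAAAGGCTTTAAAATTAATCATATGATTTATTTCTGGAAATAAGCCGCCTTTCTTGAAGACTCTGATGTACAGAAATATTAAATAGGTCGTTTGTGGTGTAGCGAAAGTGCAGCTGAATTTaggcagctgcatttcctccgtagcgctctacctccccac

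Harbi1 differed by 0.069 (SE 0.076, adjusted p = 0.9995 from limma), and its groups overlapped, as those of Atg13 did.

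Atg101 (6833314) encodes a small partner that stabilises ATG13. Its log2 signals were 6.09, 5.92 and 5.88 in the cKO arrays, against 6.06, 6.01 and 6.02 in the control arrays. The controls lay within 0.045 of each other, 2 cKO arrays lay below them and cKO replicate 1 above them. The difference was -0.066 (SE 0.082, 95% interval -0.26 to 0.13). Without cKO replicate 1 the difference was -0.13 (unadjusted p = 0.105 and adjusted p = 0.679 from limma), and the groups no longer overlapped, as was so for 26.9% of all genes tested without that array.

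Among the class III PI3K genes, Pik3c3 (6859707) encodes VPS34, the lipid kinase itself. Its log2 signals were 6.51, 6.60 and 6.57 in the cKO arrays, against 6.39, 6.51 and 6.53 in the control arrays. The values of cKO replicate 1 and control replicate 2 were nearly the same, and the other 2 cKO arrays were above every control. The difference was 0.084 (SE 0.076, 95% interval -0.095 to 0.26), a fold change of 1.06. Pik3r4 (6992133) encodes VPS15, the regulatory subunit that holds the kinase. It had log2 signals of 7.18, 6.93 and 6.74 in the cKO arrays, against 7.03, 6.92 and 6.94 in the control arrays. As with Ulk1, the cKO arrays held the highest and the lowest value. The difference was -0.013 (SE 0.12, 95% interval -0.30 to 0.27).

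Becn1 (6791482) encodes Beclin 1, the scaffold common to both forms of the complex. It had log2 signals of 6.25, 6.05 and 6.01 in the cKO arrays, against 6.12, 6.13 and 6.21 in the control arrays. Replicate 1 was the highest of the 6 arrays, and the other 2 cKO arrays were the lowest. The difference was -0.051 (SE 0.089, 95% interval -0.26 to 0.16). Without cKO replicate 1 it was -0.12 and the groups did not overlap, which again held for 26.9% of all genes tested. The log2 ratio of Becn1 over Pik3c3 within an array, set against its mean in the controls, was 0.065, -0.23 and -0.24 in the cKO and 0.051, -0.054 and 0.0035 in the control arrays, so it was lower than in any control in 2 of 3 cKO arrays and higher than in any control in cKO replicate 1.

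Atg14 and Uvrag encode the subunits that tell the 2 forms of the complex apart. ATG14 directs the complex to sites where autophagosomes form, and UVRAG directs it to endosomes. Atg14 (6824363) had log2 signals of 5.73, 5.63 and 5.62 in the cKO arrays, against 5.79, 5.58 and 5.73 in the control arrays, so all cKO values fell inside the control range. The difference was -0.045 (SE 0.085, 95% interval -0.25 to 0.16). Uvrag (6969690) had 6.52, 6.69 and 6.61 in the cKO arrays, against 6.55, 6.63 and 6.62 in the control arrays, and the cKO arrays were both the highest and the lowest. Its difference of 0.0053 (SE 0.078, 95% interval -0.18 to 0.19) was the smallest of the 10. A dimmer cluster that the annotation pairs with Uvrag and Gm8149 differed by 0.17 (SE 0.13). The within-array log2 ratio of Atg14 over Uvrag, set against its mean in the controls, was 0.11, -0.17 and -0.094 in the cKO and 0.14, -0.15 and 0.011 in the control arrays. Its mean in the cKO was -0.050 ± 0.14 (SD, n = 3), where the SD of the controls was 0.15, so this ratio of RNA signals overlapped between the groups. The complexes themselves were not measured.

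The promoter windows of the initiation genes were searched for CACGTG, the core of the element read by the factors TFEB and TFE3, and for GTAAACA, a motif of FOXO factors, on both strands. These windows run from 250 bases before to 50 after the RefSeq start, and the letters of the 2 motifs do not contain each other. Of 7 initiation genes with a window examined here, 1 held CACGTG and 0 held GTAAACA, where 7.15% and 3.65% of all 32851 windows held them. The gene was Atg14, printed because it alone held a match, with the match in capitals. It begins at the base before the annotated start, and the window runs 5′ to 3′ on the minus strand of chr14:47568405-47568684 (GRCm38.p6), from 250 bases before the start to 30 after it.
Atg14: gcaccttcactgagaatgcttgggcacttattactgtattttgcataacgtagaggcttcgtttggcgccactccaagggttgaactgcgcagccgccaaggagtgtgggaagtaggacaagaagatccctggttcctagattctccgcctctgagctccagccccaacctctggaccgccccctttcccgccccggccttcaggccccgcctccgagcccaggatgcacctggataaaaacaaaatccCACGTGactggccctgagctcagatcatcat

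The match is a description of the letters. The cKO values of Atg14 all lay inside the control range, and Tfeb and Tfe3 differed by -0.070 (SE 0.078) and -0.032 (SE 0.11).

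**Figure D2:**
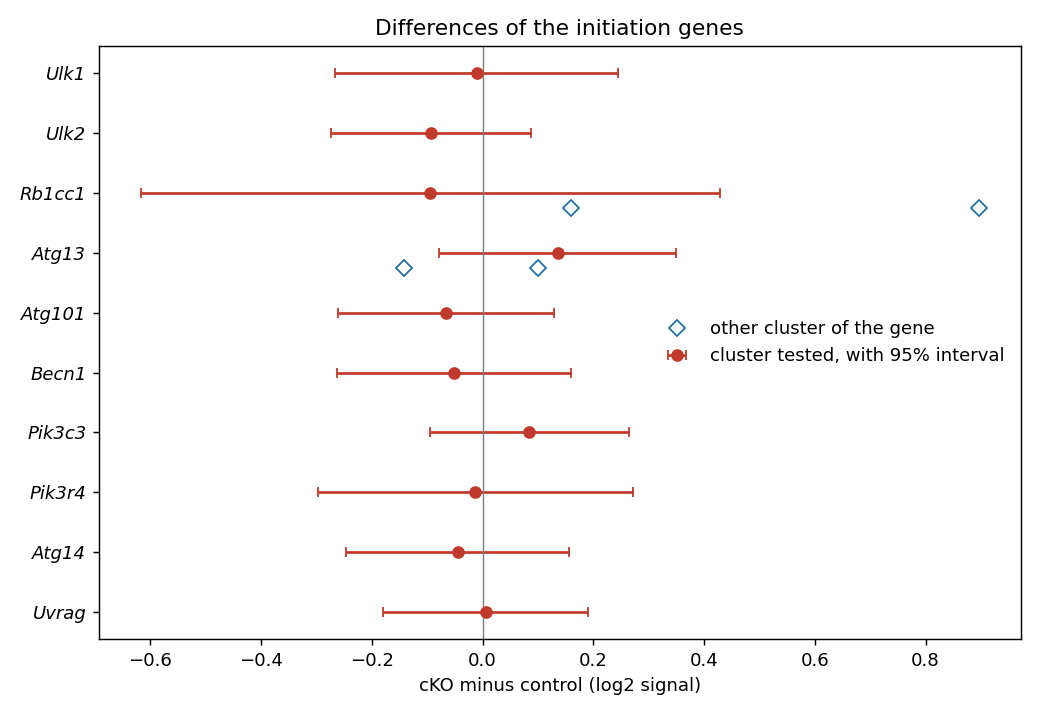
The cKO minus control difference in log2 signal (horizontal axis) of the cluster tested for each initiation gene (red point, with its 95% interval from limma) and of the other clusters paired with that gene alone (open blue diamonds). The cluster paired with Uvrag and Gm8149 is not drawn. Every interval crosses 0, and the interval of Rb1cc1, from -0.62 to 0.43, is the widest.

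The intervals bound how large a difference these arrays leave room for in the clusters tested. For the tested clusters of the 9 genes other than Rb1cc1, the 95% intervals lay between -0.30 and 0.35 on the log2 scale, or between 0.814-fold and 1.27-fold. These bounds do not cover other clusters of the same genes. Atg13 differed by 0.10 (SE 0.16) in cluster 6888780 and by -0.14 (SE 0.083) in cluster 6879075. The cluster paired with Uvrag and Gm8149 differed by 0.17 (SE 0.13). The pooled SD within groups was 0.061 for Pik3c3, the lowest, and 0.34 for Rb1cc1, the highest. The median over the 10 genes was 0.093, against 0.13 over all genes tested, and 7 of the 10 were below that median. All 10 clusters were brighter than the dimmest 25% of genes.

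How the genes varied among the arrays was also read. The array numbered 1 lay outside the other 2 arrays of its own group, on the same side in both groups, for 9 of the 10 genes, and for 44.1% of all genes tested. It lay above them for Ulk1, Atg13, Atg101, Pik3r4 and Atg14, and below them for Ulk2, Rb1cc1, Pik3c3 and Uvrag. Becn1 was the exception, since it was highest in cKO replicate 1 and lowest among the controls in control replicate 1. The labels do not say what the number stands for, and its part in these values was not tested beyond the settings without those arrays.

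Of the 6 arrays, cKO replicate 1 held the highest value for 5 genes and the lowest for 3, and cKO replicate 3 held the lowest for 4 and the highest for 0. The median deviation of the 10 genes from their control means was 0.046, -0.016 and -0.088 in cKO replicates 1 to 3, and -0.0010, -0.028 and 0.024 in control replicates 1 to 3. Over all genes tested this median was 0.053, -0.018 and -0.039 in the cKO and 0.022, -0.012 and -0.0092 in the control arrays. The median of the 10 genes had a pooled SD of 0.051 over the arrays of a group, and the gap between it and the median of all genes was within that SD in each of the 6 arrays.

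**Figure D3:**
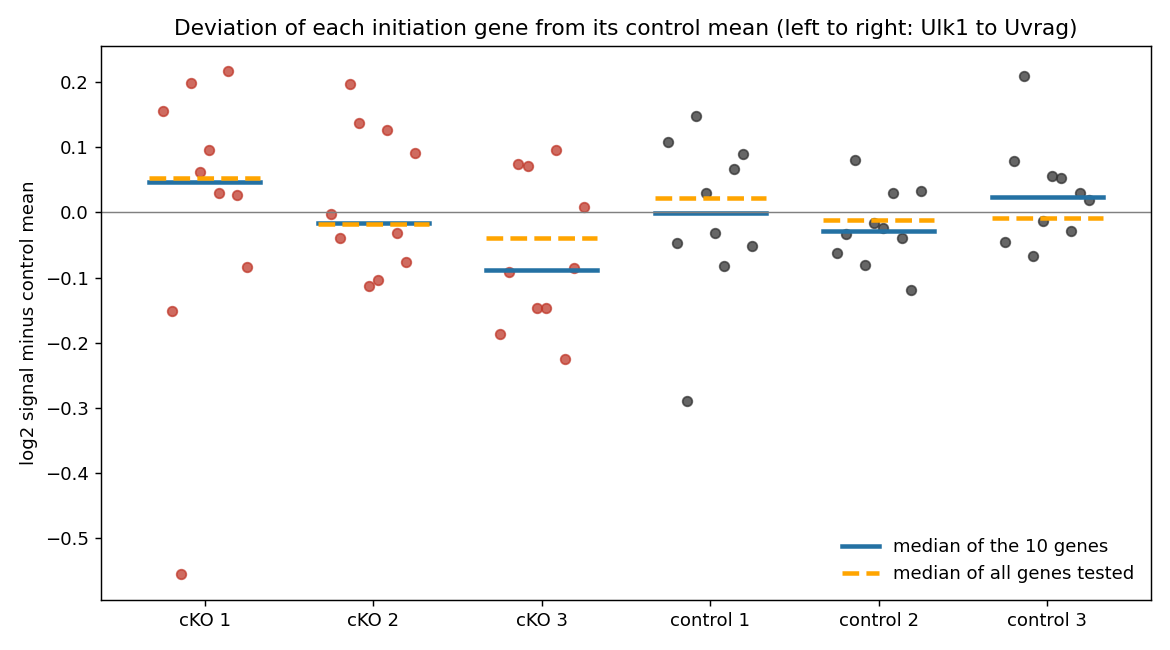
The log2 signal of each of the 10 initiation genes minus its control mean (vertical axis) in each cKO (red) and control (black) array, with the median of the 10 genes (blue line) and of all 19620 genes tested (dashed orange line). The medians of the 10 genes lie between -0.088 in cKO replicate 3 and 0.046 in cKO replicate 1, and Rb1cc1 is the lowest point of both arrays numbered 1.

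When the 2 arrays numbered 1 were left out, 5 of the 10 initiation genes had groups that did not overlap, where 37.7% of all genes tested did. Atg13 and Pik3c3 were higher in the cKO, and Ulk2, Atg101 and Becn1 were lower. When cKO replicate 1 alone was left out, 3 of the 10 did not overlap, with Pik3c3 higher and Atg101 and Becn1 lower, and 26.9% of all genes tested did not. No initiation gene passed an unadjusted p of 0.05 from limma in either setting, and the lowest was 0.0623, that of Atg13 without both arrays.

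Other genes of the pathway were read from 8 lists, in which 60 of 63 genes were measured and Nrbf2, Zfyve1 and Atg16l1 had no cluster of their own. Their means were higher in the cKO for 30 genes and lower for 30, with a median difference of 0.000048. None passed an adjusted p of 0.05 from limma, and 1 passed an unadjusted p of 0.05. The upstream kinases of ULK1, which are the AMPK subunits, the kinases Mtor and Stk11 and the mTORC1 scaffold Rptor, were higher for 5 of 7 genes, with a median of 0.018 and a range from -0.088 to 0.091. The 8 measured binding partners of the class III PI3K complexes, among them Ambra1, Rubcn and Bcl2, were higher for 4 and lower for 4, between -0.086 and 0.083. The 7 relatives of the kinases and of Beclin 1, such as Ulk3, Ulk4 and the class II kinase gene Pik3c2b, lay between -0.20 and 0.22, with a median of -0.0046. The 7 genes of ubiquitin ligases and deubiquitinases that act on these complexes had a median of -0.024, with 3 higher and 4 lower.

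The steps that read PI3P held the gene with the lowest unadjusted p of the 60. Wdr45, named after its value was seen, encodes the PI3P-binding protein WIPI4. It had log2 signals of 7.21, 7.03 and 6.83 in the cKO arrays, against 6.85, 6.72 and 6.67 in the control arrays. The groups overlapped only between cKO replicate 3 and control replicate 1. The highest value was that of cKO replicate 1, the array with the pattern of a female, and the part of sex was not tested. The difference was 0.28 (SE 0.11, unadjusted p = 0.0470 and adjusted p = 0.9995 from limma), a single gene past 0.05 among 60, where 3.98% of all genes tested passed. Its 3 measured relatives Wipi1, Wipi2 and Wdr45b differed by -0.053, -0.019 and -0.020, and the PI3P phosphatase genes Mtmr3 and Mtmr14 by 0.051 and 0.0047.

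The genes of ATG9 and ATG2, which deliver and transfer lipid, and of Tmem41b were higher for 3 of 5, with a median of 0.037. The conjugation enzymes and ATG8 proteins, the step at which ATG7 acts, were higher for 8 of 14 and lower for 6, with a median of 0.021 and a range from -0.22 for Atg3 to 0.16 for Gabarapl1. The transcription factors of autophagy genes were lower for 5 of 6, with a median of -0.094. Of these, Mitf and Zkscan3, a repressor, had no overlap between the groups and were lower in the cKO, by -0.12 (SE 0.073) and -0.12 (SE 0.074), named after their values were seen, and neither passed an unadjusted p of 0.05. They were the 2 of the 60 genes whose groups did not overlap, where 8.41% of all genes tested did not, and Zkscan3, with log2 signals between 3.64 and 3.88, was among the dimmest 25% of genes. Foxo1 differed by -0.25 (SE 0.16) and Foxo3 by 0.097 (SE 0.077).

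**Figure D4:**
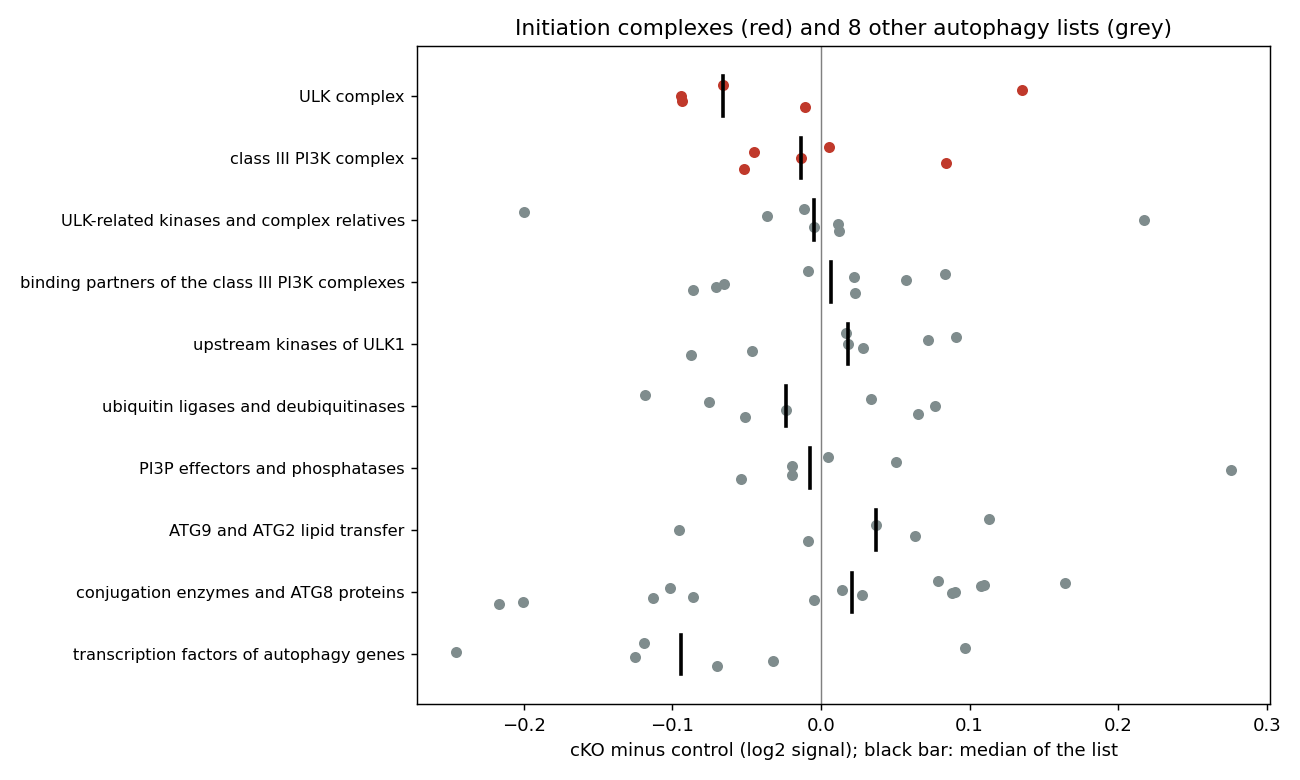
The cKO minus control difference in log2 signal (horizontal axis) of each gene of the ULK and class III PI3K complexes (red) and of 8 other lists of the autophagy pathway (grey), with the median of each list as a black bar. The medians of the 10 lists lie between -0.094, for the transcription factors, and 0.037, for the ATG9 and ATG2 genes.

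The makeup of the tissue was read from marker lists. All 5 measured markers of oligodendrocytes had a lower mean in the cKO (median -0.30), as did all 4 measured markers of the striatum (median -0.72), and all 6 of astrocytes had a higher mean (median 0.097), with none past an adjusted p of 0.05 from limma. All 4 markers of oligodendrocyte precursors also had a lower mean (median -0.078), with a mean log2 signal between 6.63 and 7.09 in the cKO and between 6.76 and 6.999 in the control arrays. Of 2 measured blood markers, Alas2 differed by 0.45 (unadjusted p = 0.0357 and adjusted p = 0.9995 from limma), the only marker past an unadjusted p of 0.05. It had 6.47, 6.31 and 5.95 in the cKO against 6.07, 5.67 and 5.64 in the control arrays, highest in the array with the pattern of a female. The other blood marker, Slc4a1, differed by 0.069 (SE 0.10), and its groups overlapped. Of the choroid plexus markers, Ttr varied within both groups, with 9.88, 7.03 and 5.58 in the cKO against 5.38, 9.62 and 7.35 in the control arrays. The mean log2 signal of the oligodendrocyte markers was between 7.9999 and 8.51 in the cKO and between 8.32 and 8.67 in the control arrays. That of the striatal markers was between 6.16 and 7.004 in the cKO and between 6.96 and 8.05 in the control arrays, and that of the neuronal markers between 9.47 and 9.60 in the cKO and between 9.57 and 9.64 in the control arrays. The part of these shifts in the values of the initiation genes was not tested.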

How the data were processed

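The authors hybridised total RNA to 6 GeneChip mouse exon 1.0 ST arrays and deposited log2 signals for 101175 transcript clusters. Their methods name GeneSpring, but the summarisation, normalization and genome build were not given in the sources used here. A deposited table of their own fold changes and p-values was not used. The annotation pairs 22773 clusters with 1 gene symbol and 1503 with several, which were left out. Symbols were brought up to date through RefSeq (GRCm38.p6), 22258 by identifier, 294 by symbol and 210 by synonym, and 11 kept their own. The brightest cluster was taken for the 2274 genes with several, which left 19620 genes. Other clusters and Atg7 were added as rows to the same fit.

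Differences are cKO minus control in log2 signal, with a two-sided test by limma version 3.58.1 in R 4.3.3 (functions lmFit and eBayes), Benjamini-Hochberg adjustment over all genes and a threshold of 0.05. The test was checked on simulated data with independent noise in each gene and array. That setting lacks the differences between arrays that many genes share here, so the check does not cover them. Alternatives were another quantile normalization, median centring, no dim genes, a trended and robust spread, averaged clusters, a replicate block, no moderation, and arrays left out. Named pathway genes were to pass an unadjusted p of 0.05 without overlap, up to 3 a list. No gene did so, and Wdr45, Mitf, Zkscan3 and others in the text are outside this rule. The members and lists were chosen with earlier results of these data known. The number of arrays limits the precision.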

Additional observations from a re-analysis of the deposited data

How the results depend on the processing

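No initiation gene passed an adjusted or an unadjusted p of 0.05 from limma under any of the 14 alternatives. In 4 of them (without dim genes, the trended and robust spread, the replicate block, no moderation) the differences are the same by construction. In the other 10, 89 of 100 differences kept their sign and 11 turned, and those of Atg101, Atg13, Becn1, Pik3c3 and Ulk2 kept it throughout. Part of the 89 was fixed in advance. With clusters averaged, only Atg13 and Rb1cc1 could change, since only these have further clusters of their own. Median centring moved every gene by the same small amount. The sign turned for Ulk1 (0.0081 quantile normalized again, 0.043 without control replicate 1, and -0.094 to 0.077 with 1 array left out, highest without cKO replicate 3), Rb1cc1 (0.32 with its clusters averaged, 0.010 without control replicate 3, and -0.24 to 0.14 with 1 array left out, highest without cKO replicate 1), Pik3r4 (0.020 without control replicate 1, and -0.13 to 0.093 with 1 array left out, highest without cKO replicate 3), Atg14 (-0.10 to 0.00015 with 1 array left out, highest without control replicate 1) and Uvrag (-0.020 without control replicate 1, and -0.038 without cKO replicate 2 to 0.050 without cKO replicate 1). The cause was not tested. The median of the 10 genes lay between -0.073, without cKO replicate 1, and -0.000021, without cKO replicate 3.

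Groups did not overlap for 1 initiation gene, Atg13, after another quantile normalization (9.69% of all genes tested), and for 5 without both arrays numbered 1 (37.7%). With 1 array left out they did not overlap for 0 to 3, where 15.1% to 26.9% of all genes tested did not. Over all genes, 1 gene, Peg10, passed an adjusted p of 0.05 from limma without the dimmest 25% of genes and with clusters averaged, against 0 otherwise. An unadjusted p of 0.05 was passed by 781 genes, by 1266 without both arrays numbered 1, and by 611 to 1509 with 1 array left out, the most without cKO replicate 1.

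Deviations from the group means correlated by 0.30, 0.038 and 0.16 between same-numbered arrays, for numbers 1 to 3. Between arrays of different numbers the correlation lay between -0.27 and 0.16. As the deviations are taken from group means, a positive correlation brings a negative one with another array by construction. The contrast between same and different numbers is therefore partly fixed in advance. The numbers were not taken to pair the arrays in the main test. With the replicate block, 1160 genes passed an unadjusted p of 0.05 and 0 an adjusted one, no initiation gene passed either, and the lowest p among them was 0.121, that of Atg13. The array of cKO replicate 2 correlated best with control replicate 3, and those of cKO replicates 1 and 3 with the control of the same number.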
